A study of Mus musculus with 12 samples.

Results

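The 10 genes described here are the 2 receptors for corticosteroids, Nr3c1 and Nr3c2, and 8 genes known to respond to glucocorticoids, Sgk1, Klf9, Tsc22d3, Fkbp5, Zbtb16, Arrdc2, Cdkn1a and Sult1a1. They were chosen by symbol among the 21872 symbols of the count table, and all 10 were found and passed the filter on low counts in each comparison. The 10, and the lists of genes read beside them, were chosen with earlier results of these data known. No enrichment is therefore read from their counts. Bulk mRNA came from striatum and prefrontal cortex of the strain C57BL/6J, taken at postnatal day 24. The 4 groups were striatum of lesioned mice, striatum of control mice, prefrontal cortex of lesioned mice and prefrontal cortex of control mice, with 3 libraries each. The lesioned mice are labelled ADHD, and the series attributes this model of attention-deficit/hyperactivity disorder to postnatal 6-hydroxydopamine (6-OHDA), a toxin taken up by catecholamine neurons. How much toxin was given, by which route and on which day, and how controls were treated, is not stated in the labels used here. Nothing in the labels ties each of the 3 libraries to its own mouse, so p-values reflect the spread among libraries, which may be technical.

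Corticosterone, the main glucocorticoid of the mouse, enters brain cells and binds the glucocorticoid receptor, encoded by Nr3c1, and with higher affinity the mineralocorticoid receptor, encoded by Nr3c2. Unliganded receptor is held in the cytoplasm by the chaperone HSP90 and its cochaperones. The hormone-bound receptor moves to the nucleus, binds palindromic response elements and recruits coactivators or corepressors. Among its targets, Fkbp5 encodes a cochaperone that lowers the receptor's hormone affinity and so closes a feedback loop.

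Promoter letters are shown for the 3 responsive genes that held a receptor half-site in a promoter window. All 3 changed in lesioned prefrontal cortex, as did Arrdc2, whose only window held no half-site. Sgk1 had 6 windows and Tsc22d3 had 3, which gave a match more places to occur, and 19.0% of all RefSeq promoter windows held a half-site. A link between matches and lesion effects was not tested. Windows of 250 bases before to 50 bases after each annotated start came from RefSeq (GRCm38.p6), which gave 16 windows for 8 of the 10 genes; Nr3c1 and Zbtb16 had none. The half-site TGTTCT, read on both strands (AGAACA on the other), and the palindrome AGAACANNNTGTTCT, which contains 2 half-sites, were searched. Capitals mark these matches, and each window is written 5′ to 3′ on the strand of its gene. The Sgk1 window is the fifth of 6 for that gene, at chr10:21993640-21993939 on the plus strand. The Tsc22d3 window is the third of 3, at chrX:140600473-140600772 on the minus strand, and the Sult1a1 window lies at chr7:126676369-126676668 on the minus strand.
Sgk1: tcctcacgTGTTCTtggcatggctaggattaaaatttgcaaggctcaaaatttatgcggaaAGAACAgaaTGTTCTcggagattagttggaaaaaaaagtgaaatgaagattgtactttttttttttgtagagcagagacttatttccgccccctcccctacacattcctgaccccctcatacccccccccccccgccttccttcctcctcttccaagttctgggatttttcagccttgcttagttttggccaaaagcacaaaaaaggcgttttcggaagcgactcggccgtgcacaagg
Tsc22d3: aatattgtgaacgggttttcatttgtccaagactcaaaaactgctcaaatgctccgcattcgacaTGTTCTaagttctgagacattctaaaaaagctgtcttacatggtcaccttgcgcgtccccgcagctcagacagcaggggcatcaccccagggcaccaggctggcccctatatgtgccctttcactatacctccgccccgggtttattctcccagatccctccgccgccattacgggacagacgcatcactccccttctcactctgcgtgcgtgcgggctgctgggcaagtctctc
Sult1a1: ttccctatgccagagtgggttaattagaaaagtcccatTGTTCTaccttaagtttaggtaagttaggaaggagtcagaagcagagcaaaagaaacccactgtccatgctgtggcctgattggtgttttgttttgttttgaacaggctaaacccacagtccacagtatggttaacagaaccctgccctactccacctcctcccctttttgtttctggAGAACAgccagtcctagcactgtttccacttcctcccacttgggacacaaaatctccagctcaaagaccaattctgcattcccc
The Sgk1 window held the whole palindrome, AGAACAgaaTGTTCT, beginning 189 bases before the annotated start, and a further half-site 242 bases before it. Of 32851 RefSeq promoter windows, 3 held the palindrome (0.00913%) and 6233 held a half-site (19.0%). The Tsc22d3 window held 1 half-site, 185 bases before the start, and the Sult1a1 window held 2, at 212 and 34 bases. In all, 5 of the 16 windows held a half-site, and these belonged to Sgk1, Tsc22d3 and Sult1a1. A match is a description of letters and says nothing about binding in these tissues, and the windows of the other genes with RefSeq entries held no match.

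**Figure D1:**
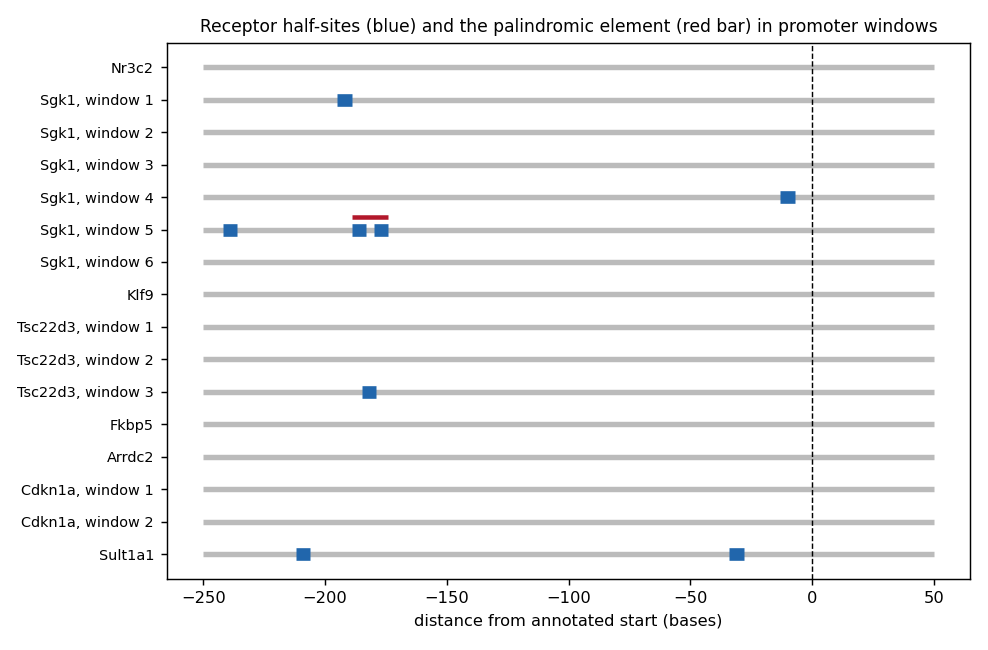
Half-sites (blue) and the palindrome (red bar) in the 16 RefSeq promoter windows of 8 genes, against the distance from the annotated start in bases. The fifth Sgk1 window carries the palindrome, and 5 windows of Sgk1, Tsc22d3 and Sult1a1 carry at least 1 half-site.

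Total counts were 15078631 to 20925452 per library, which puts the limit of 3 counts at 0.143 to 0.199 CPM, and the lowest count of any of the 10 genes in any library was 116. Levels of single genes are given as CPM, counts scaled to the library total after TMM adjustment. Summed marker levels are counts scaled to the library total alone, without that adjustment. Summed cortical excitatory neuron markers were 252 to 390 CPM in lesioned and 267 to 1140 CPM in control striatum, and 2780 to 2880 CPM in lesioned and 2820 to 2940 CPM in control prefrontal cortex. Summed striatal projection neuron markers were 4640 to 10200 CPM in lesioned and 2290 to 3570 CPM in control striatum, and 665 to 857 CPM in lesioned and 781 to 1260 CPM in control prefrontal cortex. The region labels therefore matched these markers in all 12 libraries. A pair of striatal libraries stood apart from the rest of their groups: lesioned library 1, with 10240 CPM of projection neuron markers and 119 CPM of hypothalamic and border markers against 833 and 888 CPM in the other lesioned libraries, and control library 2, with 2298 CPM of choroid plexus and ependymal markers against 90.2 and 113 CPM in the other controls. Of the 13 hypothalamic and border genes summed, 4 hold only multiples of 11 in every library. Such genes were left out of all tests, so these sums rest in part on values not used elsewhere. Control library 2 also had 1137 CPM of cortical excitatory neuron markers, against 267 and 323 CPM in the other controls. Striatal lesion effects of the 10 genes are therefore given with and without lesioned library 1 and control library 2. Those of other genes are given with this pair included only. In bulk tissue, fewer cells of a type and less RNA per cell cannot be told apart.

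**Figure D2:**
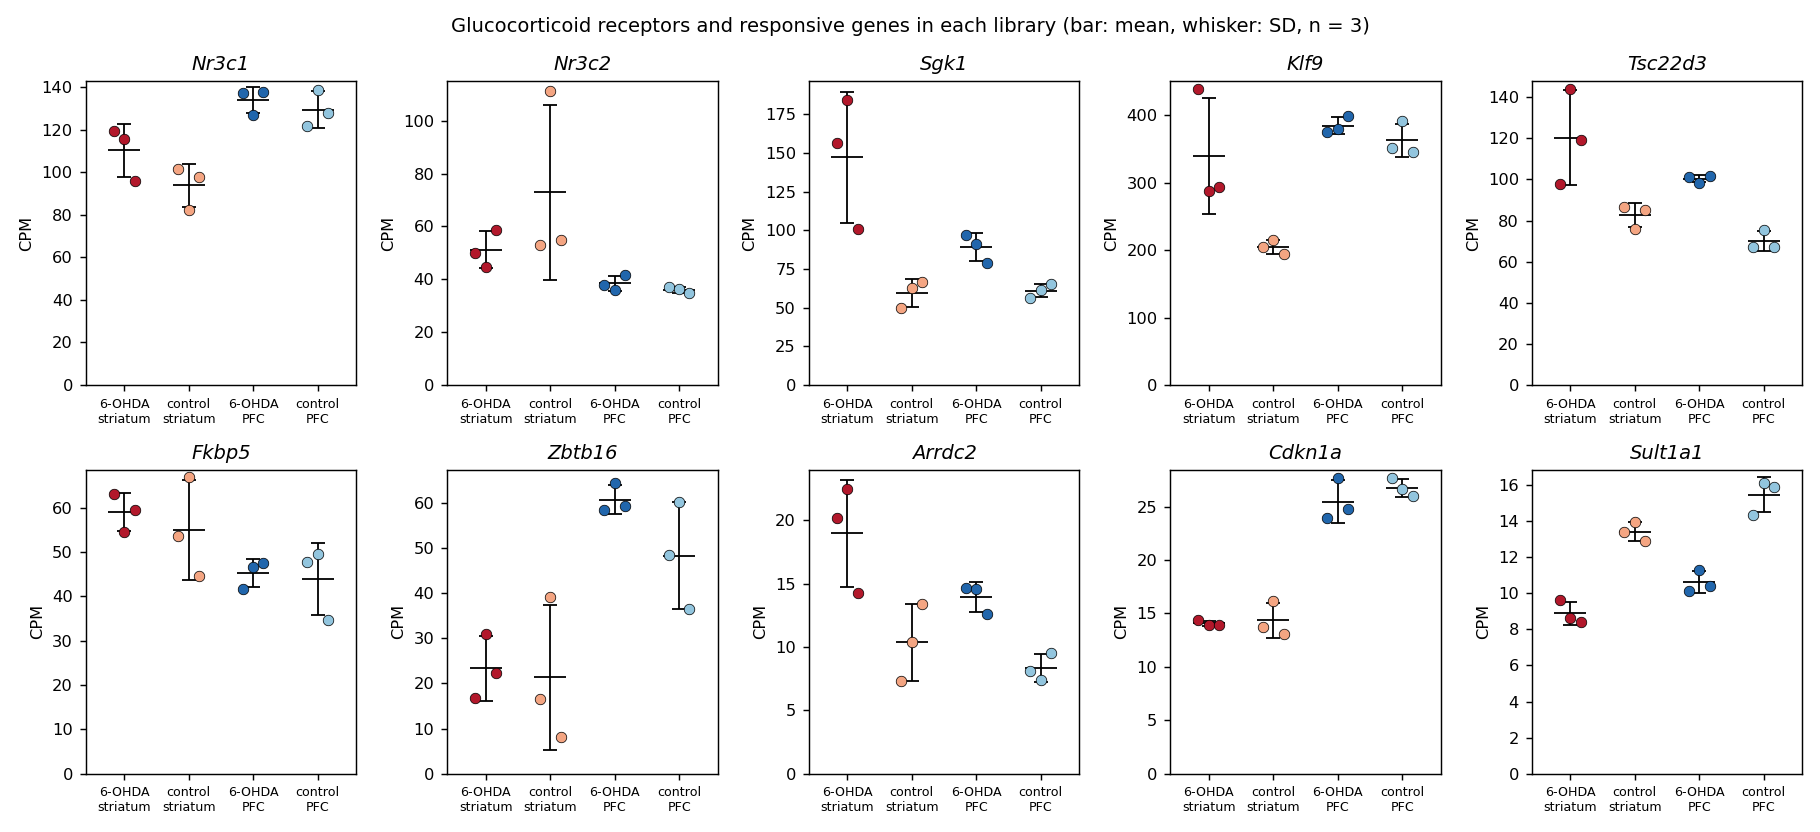
Level in CPM of each of the 10 genes in the 12 libraries, by group, with 6-OHDA left of control in each region. Points are libraries, bars are means and whiskers are SD over 3 libraries. Sgk1, Tsc22d3 and Arrdc2 stand higher and Sult1a1 lower in lesioned libraries of either region, with no overlap between groups.

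In prefrontal cortex the transcripts of 3 glucocorticoid-responsive genes rose in lesioned mice and that of 1 fell, while neither receptor passed the test. Sgk1, Tsc22d3 and Arrdc2 were 1.43-fold to 1.68-fold higher, and Sult1a1 fell to 0.686 times the control level. These 4 of 10 calls, by edgeR's quasi-likelihood test on the 6 prefrontal libraries at an adjusted p below 0.05, stand beside 5.73% of all 14018 genes tested. Since the 10 were chosen with earlier results of these data known, the difference from that share is a description and not a test. The same 4 genes, and none of the other 6, had lesioned and control libraries that did not overlap, beside 25.4% of all genes.

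Sgk1, serum- and glucocorticoid-regulated kinase 1, had 97.2, 91.2 and 79.1 CPM in lesioned prefrontal cortex, against 56.5, 61.3 and 65.3 CPM in control prefrontal cortex. All 3 lesioned libraries lay above all controls. The log2 fold change was 0.55 (SE 0.075, adjusted p = 0.00145). Sgk1 spans chr10:21882184-21999903 (GRCm38) and is the gene whose window carries the palindrome.

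Tsc22d3 encodes the glucocorticoid-induced leucine zipper GILZ, which dampens inflammatory signalling, from chrX:140539528-140600659. It had 101, 98.4 and 102 CPM in lesioned and 67.0, 75.6 and 67.3 CPM in control prefrontal cortex. The lesioned libraries lay within 4 CPM of each other and well above the controls, and of the 10 genes its change had the smallest adjusted p in this region. The log2 fold change was 0.52 (SE 0.058, adjusted p = 0.000475).

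Arrdc2, an alpha-arrestin encoded at chr8:70835129-70839720, was a low transcript, with 14.7, 14.6 and 12.6 CPM in lesioned and 8.09, 7.40 and 9.54 CPM in control prefrontal cortex. Its groups did not overlap, and its change, 0.75 in log2 (SE 0.119, adjusted p = 0.00338), was the largest of the 10 in this region. Sult1a1, a sulfotransferase that conjugates phenolic compounds, ran the other way. It had 10.2, 11.3 and 10.4 CPM in lesioned and 14.3, 16.1 and 15.9 CPM in control prefrontal cortex, which gave -0.54 in log2 (SE 0.100, adjusted p = 0.00776). Sult1a1 lies at chr7:126672865-126676432 and shares 61 exonic bases with Sgf29 on the opposite strand, whose log2 fold change was -0.04 (adjusted p = 0.905), and the labels do not say whether counting used strand.

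The receptors gave narrow intervals around 0. Nr3c1 had 137, 127 and 138 CPM in lesioned and 122, 139 and 128 CPM in control prefrontal cortex, overlapping groups with a log2 fold change of 0.05 (95% interval -0.08 to 0.17, adjusted p = 0.694). Nr3c2 had 37.7, 36.1 and 41.5 CPM in lesioned and 37.0, 36.5 and 34.9 CPM in control prefrontal cortex, with a log2 fold change of 0.09 (95% interval -0.07 to 0.24, adjusted p = 0.537). Both intervals lie below the estimated changes of Sgk1, Tsc22d3 and Arrdc2.

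The other 4 responsive genes did not pass the test in this region. Klf9, a Krüppel-like transcription factor that glucocorticoids induce in neurons, had 376 to 399 CPM in lesioned and 346 to 392 CPM in control prefrontal cortex (log2 fold change 0.08, 95% interval -0.04 to 0.20, adjusted p = 0.43). Fkbp5, the feedback cochaperone, had 41.5 to 47.6 CPM in lesioned and 34.7 to 49.5 CPM in control libraries (0.03, 95% interval -0.21 to 0.26, adjusted p = 0.917). Cdkn1a, the cyclin-dependent kinase inhibitor p21, had 23.9 to 27.7 CPM in lesioned and 26.0 to 27.7 CPM in control libraries (-0.08, adjusted p = 0.625). All 3 overlapped between groups. Zbtb16, the zinc finger factor PLZF, had 58.3, 64.4 and 59.3 CPM in lesioned and 48.4, 60.1 and 36.5 CPM in control libraries (0.32, SE 0.124, adjusted p = 0.156). Only its control library 2 reached the lesioned range, and without that library its adjusted p was 0.00709, at a log2 fold change of 0.50.

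Marker levels also differed between these libraries. Summed immediate early genes were 1290 to 1330 CPM in lesioned and 1000 to 1250 CPM in control prefrontal cortex, with 3 of 15 higher and 1 lower by the test, and summed astrocyte markers were 5760 to 5880 CPM in lesioned and 6500 to 6600 CPM in control libraries, with 6 of 11 lower, beside 5.73% of all genes called. Oligodendrocyte precursor markers summed to 439 to 493 CPM in lesioned and 497 to 611 CPM in control libraries, with 9 of 9 estimates below 0 and 2 called. Striatal projection neuron markers, summed above, had 14 of 14 tested estimates below 0 and 1 called, with a median log2 fold change of -0.374. Mature oligodendrocyte markers summed to 5270 to 6810 CPM in lesioned and 6350 to 8940 CPM in control libraries. Of these 11 genes, 8 had estimates below 0 and 1 was called. No gene of these lists was at 0 in all libraries of a group, and their part in the calls was not tested. A single fit of all 12 libraries, where the striatal spread enters the error, called 0.206% of genes and kept the call of Sult1a1 alone (adjusted p = 0.0433), with 0.248 for Sgk1, 0.107 for Tsc22d3 and 0.186 for Arrdc2.

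In striatum the same 4 genes, and Klf9, separated lesioned from control libraries, but no gene of the 10 was called on the 6 striatal libraries. There edgeR called 4 of 14288 genes (0.028%), and 2475 genes had an unadjusted p below 0.05, among them 5 of the 10. The biological coefficient of variation was 14.9% in striatum against 5.78% in prefrontal cortex. The groups did not overlap for 5 of 10 genes, beside 25.8% of all genes. These were the same 5 that DESeq2 called on these libraries (3.7% of all genes called) and that edgeR called in the fit of all 12 (7.15%), while limma-voom with a variance per group called 0 of the 10.

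Sgk1 had 157, 184 and 101 CPM in lesioned striatum, against 49.6, 62.6 and 66.6 CPM in control striatum. The lowest lesioned library was still above the highest control. The log2 fold change of 1.30 (SE 0.222) was the largest of the 10, with an adjusted p of 0.131 on the striatal libraries and 0.00369 in the fit of 12.

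Klf9, at chr19:23141226-23168134, had 439, 287 and 294 CPM in lesioned and 206, 216 and 195 CPM in control striatum. The groups stood apart, with lesioned library 1 well above the other lesioned libraries. Its log2 fold change was 0.72 (SE 0.171, adjusted p = 0.175, and 0.0159 in the fit of 12). Without lesioned library 1 and control library 2 it was 0.53 and passed the test (adjusted p = 0.0455), the one gene of the 10 to do so.

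Tsc22d3 had 98.0, 144 and 119 CPM in lesioned and 86.5, 75.8 and 85.3 CPM in control striatum, or 0.54 higher in log2 (SE 0.138, adjusted p = 0.183, and 0.0235 in the fit of 12). Arrdc2 had 20.2, 22.5 and 14.3 CPM in lesioned and 7.33, 10.4 and 13.4 CPM in control striatum, or 0.86 higher in log2 (SE 0.248, adjusted p = 0.194, and 0.0309 in the fit of 12). The gap between its groups was under 1 CPM. Sult1a1 had 9.62, 8.66 and 8.41 CPM in lesioned and 13.4, 13.98 and 12.9 CPM in control striatum, giving -0.60 in log2 (SE 0.107, adjusted p = 0.135, and 0.00744 in the fit of 12). Its libraries were tight in each group, with an SD of 0.641 CPM in lesioned and 0.539 CPM in control striatum. Without lesioned library 1 and control library 2 the log2 fold changes were 1.29 for Sgk1, 0.61 for Tsc22d3, 0.81 for Arrdc2 and -0.63 for Sult1a1, close to those with them, and the adjusted p were 0.0878 for Sgk1, 0.0524 for Tsc22d3, 0.25 for Arrdc2 and 0.094 for Sult1a1. Sgf29, the overlapping neighbour of Sult1a1, had a log2 fold change of -0.09 (adjusted p = 0.716).

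The receptors again did not pass the test, and here the estimates had wide intervals. Nr3c1 had 119, 116 and 96.1 CPM in lesioned and 101, 82.5 and 97.9 CPM in control striatum (log2 fold change 0.23, 95% interval -0.04 to 0.49, adjusted p = 0.343). Nr3c2 had 50.1, 44.8 and 58.8 CPM in lesioned and 52.8, 111 and 54.8 CPM in control striatum (-0.52, 95% interval -1.21 to 0.17, adjusted p = 0.389). The groups of both receptors overlapped, and the control library with 111 CPM of Nr3c2 is the one rich in both choroid plexus and ependymal transcripts and cortical excitatory transcripts, whose part was not tested. Without that library and lesioned library 1 the log2 fold change of Nr3c2 was -0.06 (adjusted p = 0.874) and that of Nr3c1 was 0.08 (adjusted p = 0.735).

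Of the remaining responsive genes, Fkbp5 had 54.6 to 63.1 CPM in lesioned and 44.5 to 66.9 CPM in control striatum (log2 fold change 0.10, adjusted p = 0.757), and Cdkn1a had 13.9 to 14.4 CPM in lesioned and 13.1 to 16.2 CPM in control striatum (-0.04, adjusted p = 0.886). Zbtb16 had 16.8, 31.0 and 22.4 CPM in lesioned and 16.5, 39.2 and 8.23 CPM in control striatum, and its estimate was the least certain of the 10 (0.13, 95% interval -1.08 to 1.35, adjusted p = 0.912). The highest of its controls was library 2, rich in the same choroid plexus, ependymal and cortical excitatory transcripts, whose part was not tested. Without lesioned library 1 and control library 2 the log2 fold change of Zbtb16 was 1.12 (adjusted p = 0.143), that of Fkbp5 was 0.22 (adjusted p = 0.409) and that of Cdkn1a was 0.05 (adjusted p = 0.891).

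Beside these values, summed striatal projection neuron markers, given above, were higher in every lesioned than in every control striatal library, and 12 of the 15 did not overlap between groups, beside 25.8% of all genes. Summed astrocyte markers were 5200 to 5710 CPM in lesioned and 6130 to 6310 CPM in control striatum, and meningeal fibroblast markers 28.0 to 46.6 CPM in lesioned and 87.2 to 116 CPM in controls. Immediate early genes summed to 700 to 1100 CPM in lesioned and 451 to 774 CPM in control striatum, and endothelial markers to 209 to 245 CPM in lesioned and 243 to 285 CPM in controls. Choroid plexus and ependymal markers summed to 49.7 to 76.6 CPM in lesioned and 90.2 to 2300 CPM in control striatum, with all 8 tested genes below 0, and mural cell markers to 229 to 238 CPM in lesioned and 244 to 268 CPM in controls, with 6 of 9 estimates below 0. These sums carry no TMM adjustment, and the TMM factors were 0.968, 1.05 and 1.05 in lesioned and 1.08, 1.07 and 1.07 in control striatum. With these factors applied, the astrocyte and mural sums of the groups overlap. Of these lists, 1 choroid plexus or ependymal gene was at 0 in all lesioned libraries and no other gene in all libraries of a group, and their part in the values was not tested.

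**Figure D3:**
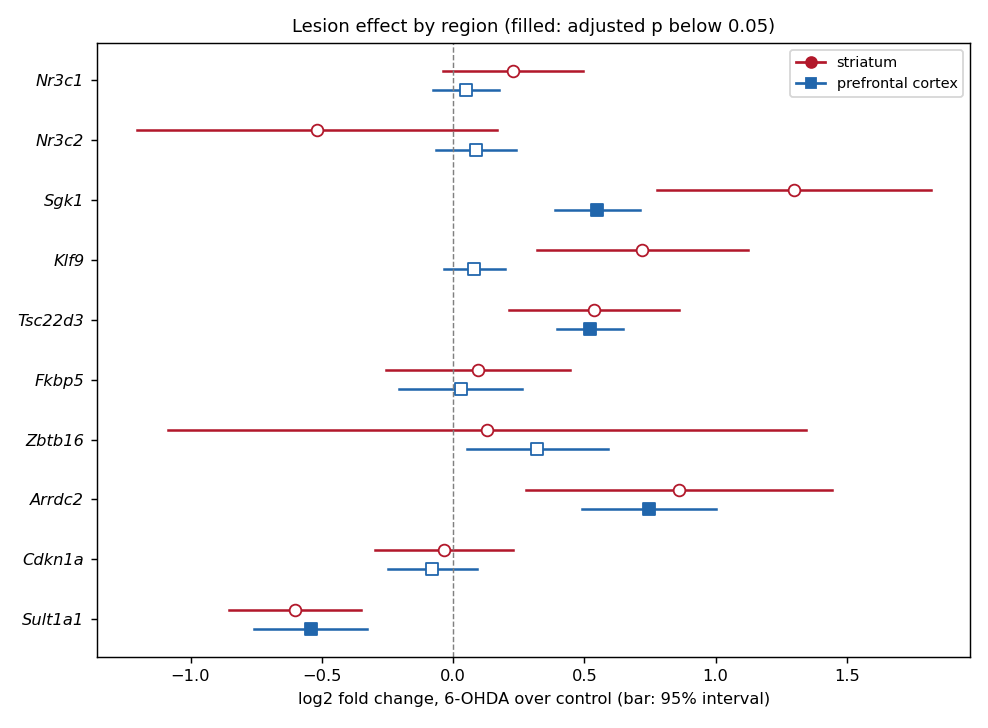
Log2 fold change of 6-OHDA over control for each gene, with its 95% interval, in striatum (red) and prefrontal cortex (blue), from the fits of 6 libraries. Filled symbols mark an adjusted p below 0.05, reached in prefrontal cortex by Sgk1, Tsc22d3, Arrdc2 and Sult1a1 and in striatum by no gene.

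Whether the lesion effect differed between striatum and prefrontal cortex was tested by an interaction in 1 fit of all 12 libraries. No gene of the 10 was called, beside 0.0825% of 14545 genes by edgeR and 0.798% by DESeq2, and limma-voom also called 0 of the 10. An unadjusted p below 0.05 was found for 2 of the 10, beside 1703 of all 14545 genes. Klf9 had the smallest p, with a striatal effect larger by 0.63 on the log2 scale (SE 0.190, 95% interval 0.22 to 1.05, adjusted p = 0.307). Without lesioned striatal library 1 and control striatal library 2 this difference was 0.45 and passed the test (adjusted p = 0.0349). For Sgk1 the striatal effect was larger by 0.74 (95% interval 0.20 to 1.29, adjusted p = 0.329). Tsc22d3 differed by 0.01 (95% interval -0.34 to 0.36), Sult1a1 by -0.06 (-0.35 to 0.22) and Arrdc2 by 0.11 (-0.52 to 0.74), so for these 3 the interval spans 0 and, for Arrdc2, also effects in striatum of well over the prefrontal size. Nr3c2 had a difference of -0.61 (95% interval -1.32 to 0.10, adjusted p = 0.493), and -0.15 without that pair of libraries.

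In both regions together, lesioned and control libraries did not overlap in a shared direction for 4 of the 10 genes, Sgk1, Tsc22d3 and Arrdc2 higher and Sult1a1 lower, beside 6.97% of the 13824 genes tested in both. This share too is a description, since the 10 were chosen with earlier results of these data known. The regional comparisons use separate libraries, although a mouse may have given both regions.

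The wider pathway was read from 4 lists of genes. Among 37 tested genes of 40 other glucocorticoid-responsive genes, 4 rose and 3 fell in lesioned prefrontal cortex, beside 5.73% of all genes, with a median log2 fold change of 0.08 against -0.005 over all genes. The fit of 12 libraries called 0 of the 37, with adjusted p of 0.206 for Per1, 0.164 for Dusp1 and 0.12 for Mfsd2a. Per1, a clock gene with a response element of its own, averaged 161 ± 30.7 CPM in lesioned and 103 ± 11.5 CPM in control prefrontal cortex (SD, n = 3 each; log2 fold change 0.64, adjusted p = 0.00645). Dusp1, a phosphatase of MAP kinases, averaged 47.7 ± 3.90 CPM in lesioned and 29.4 ± 9.14 CPM in control libraries (0.71, adjusted p = 0.0144). Mfsd2a, the lysophospholipid transporter of brain endothelium, had 21.9 to 27.3 CPM in lesioned and 33.3 to 36.8 CPM in control libraries (-0.49, adjusted p = 0.00652). The other called genes, named after their values were seen, were Acer2, an alkaline ceramidase, and Arl4d, a small GTPase, which rose (log2 fold changes 0.73 and 0.53), and Gjb6, an astrocyte connexin, and Mt1, a metallothionein, which fell (-0.26 and -0.28). Neuronal activity also induces Dusp1, and the immediate early genes of these libraries are given above. Gjb6 lies beside the lower astrocyte markers given above, and for Mfsd2a the summed endothelial markers were 243 to 257 CPM in lesioned and 258 to 295 CPM in control prefrontal cortex, with 2 of 10 lower. The part of these markers was not tested.

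In striatum none of the 37 was called by edgeR or limma-voom on the 6 libraries. Before adjustment 11 reached p below 0.05, beside 2475 of all 14288 genes. DESeq2 called 5, beside 3.7% of all genes, and the fit of 12 libraries called 5 higher and 1 lower, beside 7.15%. The median log2 fold change was 0.04 against -0.004 over all genes. Pdk4, a kinase that inhibits pyruvate dehydrogenase, had the smallest p, with 12.8 to 14 CPM in lesioned and 7.21 to 9.56 CPM in control striatum (log2 fold change 0.68, adjusted p = 0.144). Groups did not overlap in a shared direction in both regions for Per1, Arl4d, Acer2 and Rhob, higher, and Gjb6, lower, which is 5 of 37 beside 6.97% of all genes. Per1 had 119.7 to 209.6 CPM in lesioned and 81.8 to 88.1 CPM in control striatum (0.87, adjusted p = 0.17).

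**Figure D4:**
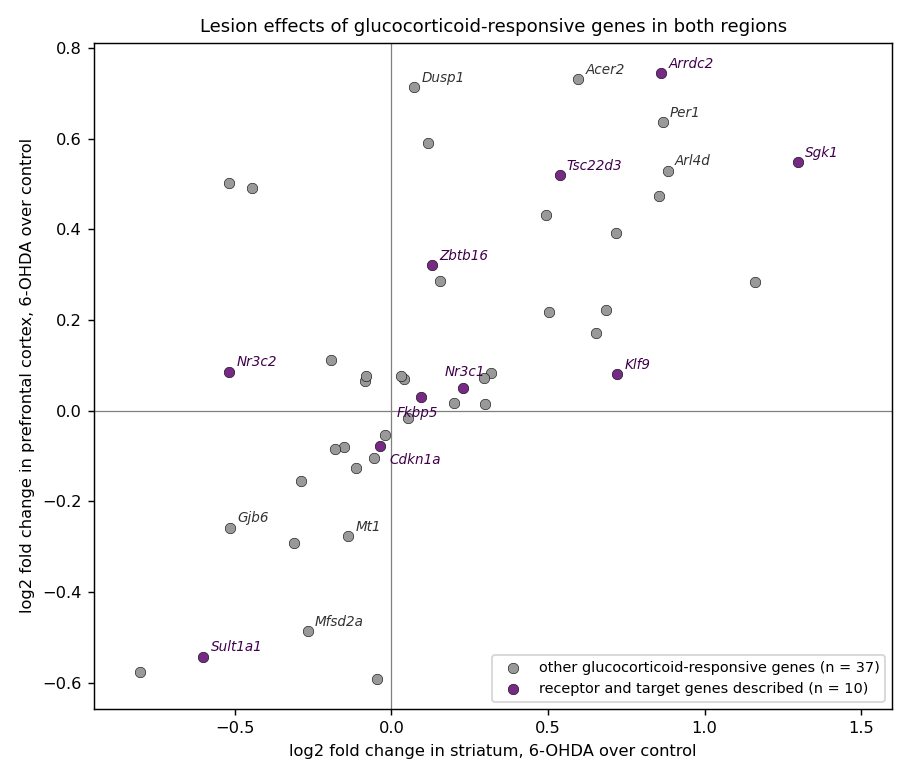
Lesion effect in striatum (x axis) against that in prefrontal cortex (y axis), both as log2 fold change of 6-OHDA over control, for the 10 genes (purple) and 37 other glucocorticoid-responsive genes (grey); labels mark the 10 and those called in prefrontal cortex. Sgk1, Tsc22d3, Arrdc2, Per1, Arl4d and Acer2 lie at the upper right and Sult1a1 at the lower left, while Dusp1 lies near 0 in striatum.

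The chaperones and cochaperones of the receptor showed no call in prefrontal cortex by edgeR, DESeq2 or limma-voom, at 0 of 19. An unadjusted p below 0.05 was found for 3 of them, beside 2889 of all 14018 genes. Bag1, a nucleotide exchange factor of HSP70, had the smallest p (log2 fold change -0.15, adjusted p = 0.133). In striatum edgeR called 0 of 19 on the 6 libraries and DESeq2 called 1. There 5 had an unadjusted p below 0.05, beside 2475 of all 14288 genes. Of the 19, 18 had an estimate below 0, with a median log2 fold change of -0.14 against -0.004 over all genes. Hspb1, the small heat shock protein HSP27, had the smallest p, with 1.79 to 2.78 CPM in lesioned and 4.77 to 15.4 CPM in control striatum (-1.90, SE 0.502, adjusted p = 0.183). Its highest library was more than 3 times the lowest among the controls.

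Among 18 coregulators of nuclear receptors, 2 rose and 1 fell in lesioned prefrontal cortex, beside 5.73% of all genes, and the fit of 12 libraries called none of them (adjusted p = 0.355 for Ncoa2, 0.21 for Ep300 and 0.0802 for Hexim1). Ncoa2, the coactivator GRIP1, averaged 151 ± 6.93 CPM in lesioned and 129 ± 5.44 CPM in control libraries (log2 fold change 0.22, adjusted p = 0.028), and Ep300, the acetyltransferase p300, averaged 100.2 ± 3.83 CPM in lesioned and 86.0 ± 4.37 CPM in control libraries (0.22, adjusted p = 0.0394). Hexim1, an inhibitor of the elongation factor P-TEFb that also binds the glucocorticoid receptor, fell to 50.8 ± 1.49 CPM in lesioned libraries, against 65.2 ± 5.23 CPM in controls (-0.36, adjusted p = 0.00658). Hexim1 also had the smallest p of the list in striatum, with 50.7 to 53.8 CPM in lesioned and 65.6 to 72.8 CPM in control libraries (-0.40, adjusted p = 0.135). There edgeR called none and DESeq2 called 1. Before adjustment 2 genes of the list reached p below 0.05, beside 2475 of all 14288 genes.

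Of 22 genes of steroid metabolism and the corticotropin system, 14 were tested in prefrontal cortex, since 4 hold only multiples of 11, 1 was at 0 throughout and the others did not pass the filter on low counts. None was called by edgeR, DESeq2 or limma-voom, and 4 had an unadjusted p below 0.05, beside 2889 of all 14018 genes. Srd5a1, a steroid reductase, had the smallest p there, with 12.6 to 15.02 CPM in lesioned and 15.7 to 18.5 CPM in control libraries (log2 fold change -0.30, adjusted p = 0.111). In striatum 16 were tested, and edgeR called none and DESeq2 called 1. An unadjusted p below 0.05 was found for 3, beside 2475 of all 14288 genes. Abcb1a, the drug transporter P-glycoprotein that exports some steroids at the blood-brain barrier, had the smallest p, with 28.0 to 33.3 CPM in lesioned and 36.0 to 39.5 CPM in control striatum (-0.35, adjusted p = 0.183). Summed endothelial markers of these libraries are given above, and their part was not tested. No gene of the 4 lists was called in the interaction by edgeR, DESeq2 or limma-voom. There 2 of 37, 3 of 19, 0 of 18 and 3 of 16 had an unadjusted p below 0.05, beside 1703 of all 14545 genes. The smallest p of each list belonged to Angptl4 (-1.02, adjusted p = 0.387), a lipase inhibitor; Hspa8 (-0.31, adjusted p = 0.345), a constitutive chaperone; Nrip1 (0.42, adjusted p = 0.444), a corepressor; and Mc4r (-1.23, adjusted p = 0.253), a melanocortin receptor.

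Apart from the lesion, the 10 genes differed between striatum and prefrontal cortex. In control mice 2 were higher and 3 lower in striatum, or 5 of 10 beside 42.3% of all genes, and 6 of 10 did not overlap between regions, beside 55.4% of all genes. In lesioned mice 3 were higher and 3 lower, or 6 of 10 beside 45.2% of all genes, and 7 of 10 did not overlap, beside 58.3%. The 10 genes thus differed between regions about as often as genes in general. The lesioned and the control comparison share no library.

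Both receptors differed between regions, in opposite directions. Nr3c1 was lower in striatum than in prefrontal cortex in lesioned mice, at 110.4 ± 12.5 against 134 ± 5.99 CPM (SD, n = 3 each; log2 fold change -0.29, adjusted p = 0.0303), and in controls, at 93.9 ± 10.04 against 129 ± 8.65 CPM (-0.46, adjusted p = 0.00399). Nr3c2 was higher in striatum in lesioned mice, at 51.2 ± 7.08 against 38.4 ± 2.79 CPM (0.41, adjusted p = 0.0213), and in controls, at 72.9 ± 33.2 against 36.1 ± 1.09 CPM (1.02, adjusted p = 0.0162). The control value includes the striatal library of 111 CPM, without which the difference was 0.58 (adjusted p = 4.98e-05). In lesioned mice the call of Nr3c1 was lost when any 1 of the prefrontal libraries or striatal library 3 was left out (adjusted p between 0.0531 and 0.0995), and that of Nr3c2 without prefrontal library 1 or 2 or striatal library 3 (0.0566 to 0.0875) and in the fit of 12 libraries (0.168). In controls the call of Nr3c2 was lost without prefrontal library 2 or 3 (0.0601 and 0.0582), and that of Nr3c1 in controls held without any 1 library.

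Cdkn1a and Zbtb16 were the genes most biased to cortex. Cdkn1a averaged 14.1 ± 0.250 CPM in striatum and 25.5 ± 1.99 CPM in prefrontal cortex of lesioned mice (log2 fold change -0.86, adjusted p = 0.000222), and in controls 14.4 ± 1.61 CPM in striatum and 26.8 ± 0.842 CPM in prefrontal cortex (-0.90, adjusted p = 0.000236), with no loss of either call without any 1 library. Zbtb16 averaged 23.4 ± 7.17 CPM in striatum and 60.7 ± 3.23 CPM in prefrontal cortex of lesioned mice (-1.38, adjusted p = 0.000941). In controls its striatal libraries spanned 8.23 to 39.2 CPM against 36.5 to 60.1 CPM in prefrontal cortex (-1.19, adjusted p = 0.0723). Without control striatal library 2 the control difference was -1.98 and passed the test (adjusted p = 4.47e-05), as did that of -1.19 in the fit of 12 libraries (adjusted p = 0.0324).

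Klf9 had 195 to 216 CPM in striatum and 346 to 392 CPM in prefrontal cortex of controls, with no overlap (log2 fold change -0.82, adjusted p = 9.08e-05). In lesioned mice it had 287 to 439 CPM in striatum and 376 to 399 CPM in prefrontal cortex, and the groups overlapped (-0.19, adjusted p = 0.37). That overlap came from lesioned striatal library 1, and without it the difference was -0.41 (adjusted p = 9.16e-05). Sgk1 showed the reverse arrangement: in controls the regions overlapped (log2 fold change -0.03, adjusted p = 0.859), and in lesioned mice striatum was higher (0.72, adjusted p = 0.0199), a call lost without prefrontal library 2 or 3 (adjusted p = 0.062 and 0.0852). The change in the regional difference is the interaction given above, which called neither gene.

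Tsc22d3 was higher in striatum in controls (log2 fold change 0.24, adjusted p = 0.0354), a call lost when prefrontal library 1 or 3 or striatal library 1 or 3 was left out (adjusted p of 0.106 to 0.147), and not called in lesioned mice (0.26, adjusted p = 0.137, or 0.00164 without striatal library 1). Fkbp5 was higher in striatum in lesioned mice (0.38, adjusted p = 0.00775) and not called in controls (0.32, adjusted p = 0.168). The fit of 12 libraries called neither Fkbp5 in lesioned mice (adjusted p = 0.0572) nor Tsc22d3 in controls (adjusted p = 0.111). In all, 7 of 17 alternatives lost the call of Tsc22d3 in controls. Arrdc2 was called in neither, at 0.43 (adjusted p = 0.0622) in lesioned mice and 0.32 (adjusted p = 0.261) in controls. It passed in lesioned mice without striatal library 3 (0.0086) and in controls without striatal library 1 (0.0495). Sult1a1 had non-overlapping regions, lower in striatum, in both states, at -0.26 (adjusted p = 0.0798, or 0.0413 without striatal library 1) in lesioned mice and -0.20 (adjusted p = 0.119) in controls, and was called in neither, while the fit of 12 libraries called it in lesioned mice (adjusted p = 0.0349).

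**Figure D5:**
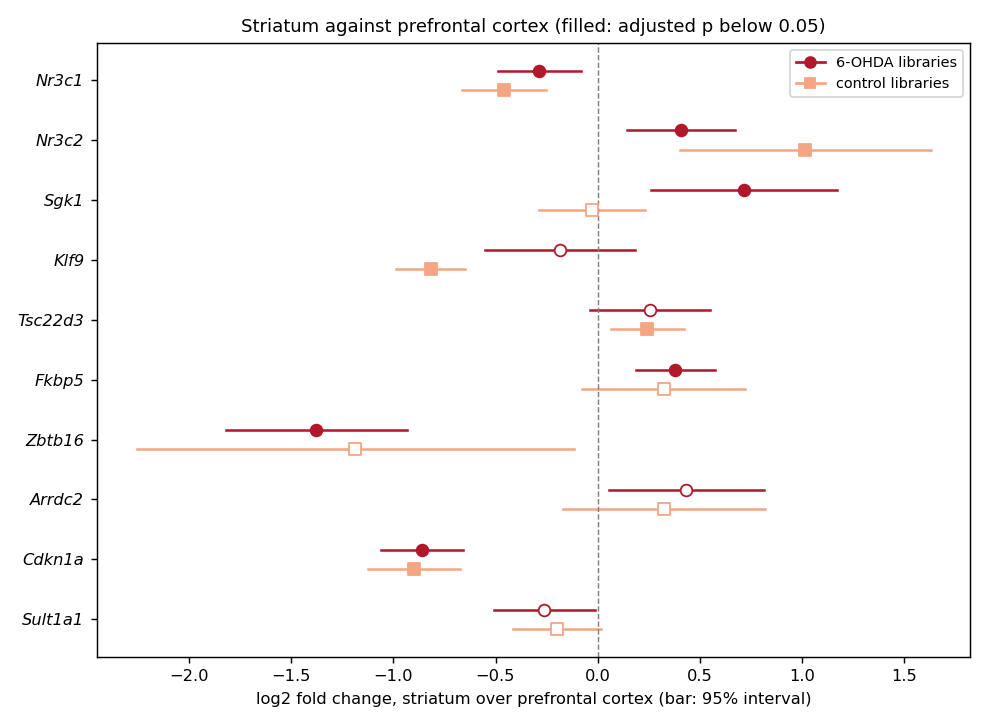
Log2 fold change of striatum over prefrontal cortex with its 95% interval, in 6-OHDA libraries (dark red circles) and control libraries (light squares); filled symbols mark an adjusted p below 0.05. Nr3c1 and Nr3c2 lie on opposite sides of 0 in both, while Klf9 is called in controls and Sgk1 in 6-OHDA libraries.

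Regional calls in the pathway lists are read against 45.2% of all genes called in lesioned mice and 42.3% in controls, and nothing particular to a list is read from its counts. Of 37 other responsive genes, 12 were higher and 9 lower in striatum of lesioned mice, and 6 higher and 9 lower in controls. In lesioned mice those with the smallest p were Dusp1 (log2 fold change -1.35), Itgb4, an integrin subunit (1.31), and Bcl6, a transcriptional repressor (-0.65). In controls they were Ccn2, a matricellular protein (-2.41), Rasd1, the dexamethasone-induced small GTPase (1.97), and Pik3r1, a regulatory subunit of PI3 kinase (-0.78). Of 19 chaperones and cochaperones, 1 was higher and 11 lower in striatum of lesioned mice, and 3 were higher and 4 lower in controls. Ppp5c, the phosphatase PP5, was lower in striatum in both states (-0.80 in lesioned mice and -0.68 in controls), followed in lesioned mice by Dnajb1 (-0.42) and Bag1 (-0.34). In controls Bag3 (0.80) and Fkbp4, the cochaperone FKBP52 (0.32), were higher in striatum.

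Among 18 coregulators, 0 were higher and 4 lower in striatum of lesioned mice, and 2 were higher and 5 lower in controls, both under the shares of all genes. Tbl1xr1 (-0.41 in each state) and Ncor1 (-0.36 in lesioned mice and -0.37 in controls), both parts of corepressor complexes, were among the genes with the smallest p in either, with Med14, a Mediator subunit (-0.23), in lesioned mice and Nrip1 (-0.66) in controls. Of the steroid and corticotropin genes, 3 were higher and 5 lower in striatum among 15 tested in lesioned mice, and 4 higher and 3 lower among 16 in controls. Crhr1, the main corticotropin-releasing hormone receptor of cortex, had 8.90 ± 0.730 CPM in striatum and 33.9 ± 2.19 CPM in prefrontal cortex of lesioned mice (log2 fold change -1.93), and in controls 9.01 ± 1.88 CPM in striatum and 29.3 ± 3.88 CPM in prefrontal cortex (-1.69). Crhbp, which binds the hormone (-2.31), and Hsd11b1, which regenerates active glucocorticoid inside cells (-1.52), were lower in striatum of lesioned mice. In controls Avpr1a, a vasopressin receptor, averaged 4.73 ± 0.611 CPM in striatum and 0.225 ± 0.0865 CPM in prefrontal cortex (4.39), and Crhr2, a urocortin receptor, 4.63 ± 0.806 CPM in striatum and 0.698 ± 0.147 CPM in prefrontal cortex (2.697). The prefrontal Avpr1a libraries, at 0.149 to 0.319 CPM, lay near the limit of 3 counts (0.143 to 0.199 CPM). The size of its difference therefore rests on few reads.

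Per length of exon, Klf9 was the most abundant of the 10 genes in each group, at 70.6 CPM per kb in lesioned and 42.6 in control striatum, and 79.9 in lesioned and 75.4 in control prefrontal cortex. Nr3c1 stood above Nr3c2 per length in lesioned striatum, at 14.4 CPM per kb against 7.91 for Nr3c2, in lesioned prefrontal cortex, at 17.4 against 5.94, and in control prefrontal cortex, at 16.8 against 5.58. In control striatum Nr3c1 was at 12.2 and Nr3c2 at 11.3 CPM per kb, where the library of 111 CPM raised the Nr3c2 mean. At the low end Arrdc2 had 2.58 CPM per kb in control prefrontal cortex. These values use the union of annotated exons (GENCODE vM21), which may not match the isoforms expressed.

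By the order of group means, Nr3c1 fell into 2 levels, both prefrontal groups above both striatal groups, and libraries overlapped within each level. Nr3c2, Zbtb16 and Cdkn1a likewise ordered by region, Nr3c2 with striatum on top and the others with prefrontal cortex on top, and neighbouring groups of the same region overlapped. Sgk1 ordered by lesion, with lesioned striatum above lesioned prefrontal cortex, and the controls overlapping below. Sult1a1 was the only gene of the 10 whose 4 groups did not overlap between any neighbours in the order: control prefrontal cortex, control striatum, lesioned prefrontal cortex and lesioned striatum, from high to low. For Tsc22d3 the lesioned groups overlapped each other and lay above the controls of either region.

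Over the 12 libraries the log2 CPM of Nr3c1 and Nr3c2 ran in opposite directions (Pearson r = -0.90, and -0.71 after subtracting each group's mean). Control striatal library 2, set apart above by its markers, had both the highest Nr3c2 (111 CPM) and the lowest Nr3c1 (82.5 CPM) of the 12. It weighs heavily in the value within groups, and r without it was not computed. Sgk1 and Arrdc2 ran together (0.94, and 0.87 within groups). Tsc22d3 and Sult1a1 ran opposite (-0.93), but less so within groups (-0.42). These are descriptions over 12 libraries that share 4 group means, so no p is given. Among 13682 genes above 1 CPM on average, the pattern nearest to Nr3c1 was that of Dennd4a (0.978), followed by Tmem50a (0.962) and Cplx3 (0.961), and nearest to Nr3c2 that of Kl (0.970), a choroid plexus gene on the marker list, then Cabp7 (0.952) and Slc4a7 (0.941). Fkbp5 was most like Gemin5 (0.938), Zhx3 (0.878) and Brwd3 (0.876), and Tsc22d3 like Trp53inp1 (0.948), Copg2 (0.932) and Etnppl (0.932). With group means removed the nearest were Erbin (0.965) for Nr3c1, Tomm34 (0.978) for Nr3c2, Rasa1 (0.978) for Fkbp5 and Camk2g (0.972) for Tsc22d3, and none of the 12 genes on the first reading recurred among the 3 nearest of the same gene.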

How the data were processed

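The table the authors deposited holds counts by gene symbol for all 12 libraries. A set of symbols described below holds only multiples of 11 and was not treated as raw read counts. Per the submitters' processing notes the tools were STAR 2.7.1a and featureCounts and the build was mm10, and the labels' protocols describe stranded mRNA libraries from 500 ng of RNA read as 101 bp pairs. Which annotation and strand setting were used, and how multiply matching reads were handled, is not stated there.

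Of 18140 symbols above 0, 1830 held only multiples of 11 and were at 0 in 1 lesioned prefrontal library. They carry 0.144% of counts, include none of the 10 genes and were left out of the tests and of single-gene levels. The summed hypothalamic and border markers still include 4 of them. Differences were tested by quasi-likelihood in edgeR 4.0.16 under R 4.3.3 (filterByExpr, TMM, two-sided, Benjamini-Hochberg over all genes), on the 6 libraries compared, and for the interaction on all 12. Standard errors are the log2 fold change over the root of F, and the script was tested on simulated data. Exon lengths and gene positions came from GENCODE vM21. The genes named beside the 10 are, for each list in each comparison, up to 3 called genes ranked by p, or the top 1 where none was called. The 10 genes, the lists and the tests were chosen with earlier results of these data known. Alternatives were RLE and upper-quartile factors, DESeq2 1.42.0, voom of limma 3.58.1, 2 other filters, the multiples of 11 kept or divided, a replicate block, a GC and length correction, 1 fit of 12 libraries and each library left out. Floors cover counting error only.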

Additional observations from a re-analysis of the deposited data

How the results depend on the processing

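Of 920 estimates of the 10 genes under alternatives, 840 kept their direction and side of the threshold, 23 lost a call, 26 gained one and 31 changed sign. In prefrontal cortex the 4 calls were made under each alternative except the fit of 12 libraries, which called 1, and the count was 4 to 5 with 1 library left out. In striatum, where 0 were called, DESeq2 called 5 (adjusted p = 7.27e-06 for Sgk1, 0.00667 for Klf9, 0.0318 for Tsc22d3, 0.0363 for Arrdc2 and 0.00649 for Sult1a1), the fit of 12 called 5, and the fit without lesioned library 1 and control library 2 called 1. The interaction called 0, and 1 without that pair. With 1 library left out, the region comparison called 3 to 9 of the 10 genes in lesioned mice, against 6, and 3 to 6 in controls, against 5. Over all genes, the alternatives called 4687 to 7721 in lesioned mice, against 6426, and 4665 to 6805 in controls, against 6029. The counts of the 10 are not read apart from these.

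None of the estimates that changed sign was called. In prefrontal cortex Fkbp5 had a log2 fold change of -0.016 with the GC and length correction and -0.11 to 0.12 with 1 library left out. In striatum Cdkn1a had 0.048 without the pair of libraries and -0.098 to 0.061 with 1 left out, Zbtb16 had -0.26 to 0.92 and Fkbp5 -0.037 to 0.26. In the interaction Tsc22d3 had -0.003 with upper-quartile factors, -0.007 with voom, -0.006 with the replicate block and -0.13 to 0.15 with 1 library left out. Zbtb16 had 0.062 with voom, 0.80 without the pair and -0.58 to 0.60 with 1 left out. With 1 left out, the interaction of Fkbp5 was -0.075 to 0.22, that of Cdkn1a -0.025 to 0.13 and that of Arrdc2 -0.084 to 0.34. The region difference of Sgk1 in controls was 0.024 with upper-quartile factors and -0.12 to 0.087 with 1 library left out. The causes were not tested.

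No label ties replicate numbers to animals. Deviations from group means were correlated between libraries. Between the regions, same-numbered libraries had r of 0.0779, -0.00485 and 0.119 in controls and 0.11, 0.0765 and -0.000663 in lesioned mice. Differently numbered libraries of 1 state had -0.129 to 0.0659. Several same-numbered values thus lay above all differently numbered ones, but values this small cannot tell whether a mouse gave both regions. Between lesioned and control libraries of 1 region, same-numbered libraries had -0.124 to 0.0239, and differently numbered ones -0.179 to 0.228. With the replicate block 4 genes were called in prefrontal cortex, 0 in striatum and in the interaction, 7 in the region comparison of lesioned mice and 6 in that of controls.

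Over all genes, the count called in prefrontal cortex was 803, against 30 in the fit of 12 libraries and 195 to 1010 with 1 library left out. In striatum it was 4, against 529 with DESeq2, 1040 in the fit of 12, 55 without the pair of libraries and 0 with voom, with the block or with the multiples of 11 kept. The interaction called 12, against 116 with DESeq2, 101 without the pair, 5 with the multiples kept or with the GC and length correction, 0 with voom or the block and 0 to 172 with 1 library left out. The 95% interval of the striatal lesion effect ran from -0.26 to 0.45 for Fkbp5 and from -1.08 to 1.35 for Zbtb16.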
